A study of Homo sapiens with 18 samples.

Results

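The genes of iron storage, iron transport and heme breakdown described here were followed at the level of mRNA and of ribosome footprints in IMR90, a fibroblast line from human fetal lung. The 10 members were taken by name from the 38716 gene symbols of the deposited tables, and all 10 were listed: the ferritin chains FTL and FTH1, the heme-degrading enzymes HMOX1 and BLVRB, the importers TFRC and SLC11A2, the exporter SLC40A1 with the ferroxidase HEPH, and the regulators ACO1 and IREB2. Ribo-seq, which sequences the mRNA fragments protected by ribosomes, and poly(A) mRNA-seq were made from the same lysates of young cells (low passage, proliferating), old cells (high passage, replicatively senescent) and ICM cells (low-passage cells given inflachromene, which targets HMGB1 and HMGB2, both chromatin proteins), with 3 independent cultures per condition and 18 libraries in all. All cells belonged to a single fetal line, and all lysates held cycloheximide, which arrests elongating ribosomes. ICM and old cells were each compared with the same young libraries, so these comparisons are not independent of each other.

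Iron taken up through the transferrin receptor is either used, stored inside ferritin shells or exported, and heme oxygenase releases more of it from heme. Cells balance these routes after transcription: the iron regulatory proteins, which are products of ACO1 and IREB2, bind a hairpin called the iron-responsive element. Such a hairpin in a 5′ UTR blocks ribosome loading when iron is scarce, whereas hairpins in the 3′ UTR of TFRC protect that mRNA from decay. FTL, FTH1, HMOX1 and SLC40A1 are also textbook targets of the oxidative stress factor NRF2 and of the heme-sensing repressor BACH1.

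The hairpin letters were located in the reference because they mark the mRNAs on which footprints and mRNA could part. The pattern searched was an unpaired C, a stem of 5 base pairs and the loop CAGTGN, on the sense strand of the main annotated transcript. The sequences are shown because FTL and FTH1, whose footprints and mRNA moved apart in old against young cells, both carry the hairpin in the 5′ UTR. SLC40A1 carries it there too, while TFRC carries it in the 3′ UTR. In ICM against young cells the footprints and mRNA of FTL and FTH1 rose together. The part of the hairpins in these changes was not tested. Each is given 5′ to 3′ from GRCh37, with the loop letters CAGTG in capitals.
FTL 5′ UTR, chr19:49468593-49468619, plus strand: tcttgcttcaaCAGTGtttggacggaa
FTH1 5′ UTR, chr11:61735047-61735073, minus strand: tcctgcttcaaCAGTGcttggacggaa
SLC40A1 5′ UTR, chr2:190445388-190445414, minus strand: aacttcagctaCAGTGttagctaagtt
TFRC 3′ UTR, chr3:195777335-195777361, minus strand: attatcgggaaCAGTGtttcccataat
TFRC 3′ UTR, chr3:195777382-195777408, minus strand: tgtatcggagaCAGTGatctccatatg
TFRC 3′ UTR, chr3:195777447-195777473, minus strand: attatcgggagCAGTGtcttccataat
TFRC 3′ UTR, chr3:195777851-195777877, minus strand: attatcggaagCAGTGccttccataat

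On GRCh37 FTL spans chr19:49468566-49470136, FTH1 chr11:61727190-61735106, SLC40A1 chr2:190425316-190448484 and TFRC chr3:195739382-195809024. The ferritin hairpins began 28 bases (FTL) and 34 bases (FTH1) from the transcript start, and that of SLC40A1 99 bases from it. The 4 matches of TFRC lay between 936 and 1452 bases after the stop codon. Over all main transcripts, 18 of 18629 5′ UTRs (0.0966%) and 121 of 18645 3′ UTRs (0.649%) held the pattern, while CAGTG alone stood in 19.3% and 69.4% of them. SLC11A2 and the other 5 members held no match to these letters in their UTRs, which says nothing of hairpins of another form.

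Depth differed strongly between the assays. The mRNA-seq libraries held 7902427 to 14144455 reads over coding-gene regions, and the Ribo-seq libraries 46239 to 1718521 reads over coding sequences (CDS), the ICM libraries being the shallowest group at 46239 to 225041. Among the Ribo-seq libraries, young 1 (34.4%) and old 2 (15.0%) had the lowest share of reads in coding sequence, so footprint results are also given without these 2 lysates. The 10 fibroblast markers all had reads in each condition and summed to 14317 to 36819 CPM, the depth-scaled count of a gene, with the ICM libraries the lowest at 14317 to 14588. Fewer cells of a type and less RNA per cell cannot be told apart in such bulk libraries. The lists of other cell types summed to at most 4.91 CPM (endothelial), 9.59 CPM (erythroid), 68.0 CPM (leukocyte) and 340 CPM (epithelial). The epithelial sum, led by KRT18, was 315 to 340 CPM in young, 231 to 252 CPM in old and 45.5 to 52.4 CPM in ICM libraries, and the part of this shift in the results was not tested.

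Most of the 10 mRNAs differed between conditions, but so did most genes. With edgeR's quasi-likelihood test and an adjusted p under 0.05, 8 of 10 members were called between ICM and young cells (7 higher in ICM, 1 lower), where 71% of the 13173 genes tested were called. Between old and young cells 8 members were called, all lower in old, against 66.1% of all genes. Between ICM and old cells 9 members were called, all higher in ICM, against 63.3% of all genes. The median log2 change of the members was 1.08, -0.51 and 1.90 in the 3 comparisons, beside -0.01, -0.01 and -0.01 over all genes tested. The members were chosen with earlier results of these data known, so this contrast describes them and does not test them.

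Ferritin forms the iron store, with FTL the light chain and FTH1 the heavy chain that carries the ferroxidase activity. FTL mRNA stood at 4554, 4668 and 4082 CPM in young 1 to 3, at 3384, 3502 and 3235 CPM in old 1 to 3, and at 29010, 31034 and 27126 CPM in ICM 1 to 3. The 3 groups did not overlap, and in the ICM cells FTL was the gene with the most mRNA reads of all. The log2 change of FTL mRNA was 2.69 ± 0.0769 (SE) in ICM against young cells (adjusted p = 2.13e-18, edgeR), a 6.44-fold difference, and -0.30 ± 0.0724 in old against young cells (adjusted p = 0.00096).

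FTH1 mRNA moved alongside, by less. It stood at 3572, 3605 and 2956 CPM in the young libraries, at 2294, 2456 and 2383 CPM in the old ones and at 13486, 14674 and 12603 CPM in the ICM ones. Again the groups did not overlap. The log2 change of FTH1 was 1.98 ± 0.0812 in ICM against young (adjusted p = 1.23e-15, edgeR) and -0.41 ± 0.0786 in old against young (adjusted p = 8.51e-05). Together the 2 chains took 4.26% ± 0.299 (SD, n = 3) of the mRNA-seq reads of ICM cells, 0.781% ± 0.0675 of those of young cells and 0.575% ± 0.0182 of those of old cells. The FTL to FTH1 ratio of coding reads was 3.24 to 3.55 in the ICM mRNA-seq libraries, above the 1.76 to 2.22 of the young and the 2.08 to 2.41 of the old libraries.

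Heme breakdown was led by HMOX1, the inducible heme oxygenase that opens the heme ring and frees its iron. HMOX1 mRNA stood at 32.1, 38.1 and 35.7 CPM in young, at 21.2, 20.4 and 22.1 CPM in old, and at 998, 1066 and 954 CPM in ICM libraries. All ICM libraries were far above the rest and all old libraries were below the young ones. The log2 change was 4.80 ± 0.0813 in ICM against young cells (adjusted p = 6.04e-22, edgeR), or 27.8-fold, and -0.65 ± 0.0902 in old against young cells (adjusted p = 1.57e-06). BLVRB, a biliverdin reductase, stood at 23.8 to 27.4 CPM in young, 25.6 to 28.1 CPM in old and 73.9 to 80.1 CPM in ICM libraries. BLVRB rose by 1.52 ± 0.0760 (log2) in ICM against young cells (adjusted p = 4.55e-14, edgeR) and was not called between old and young cells (0.11 ± 0.0838, adjusted p = 0.244).

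**Figure D1:**
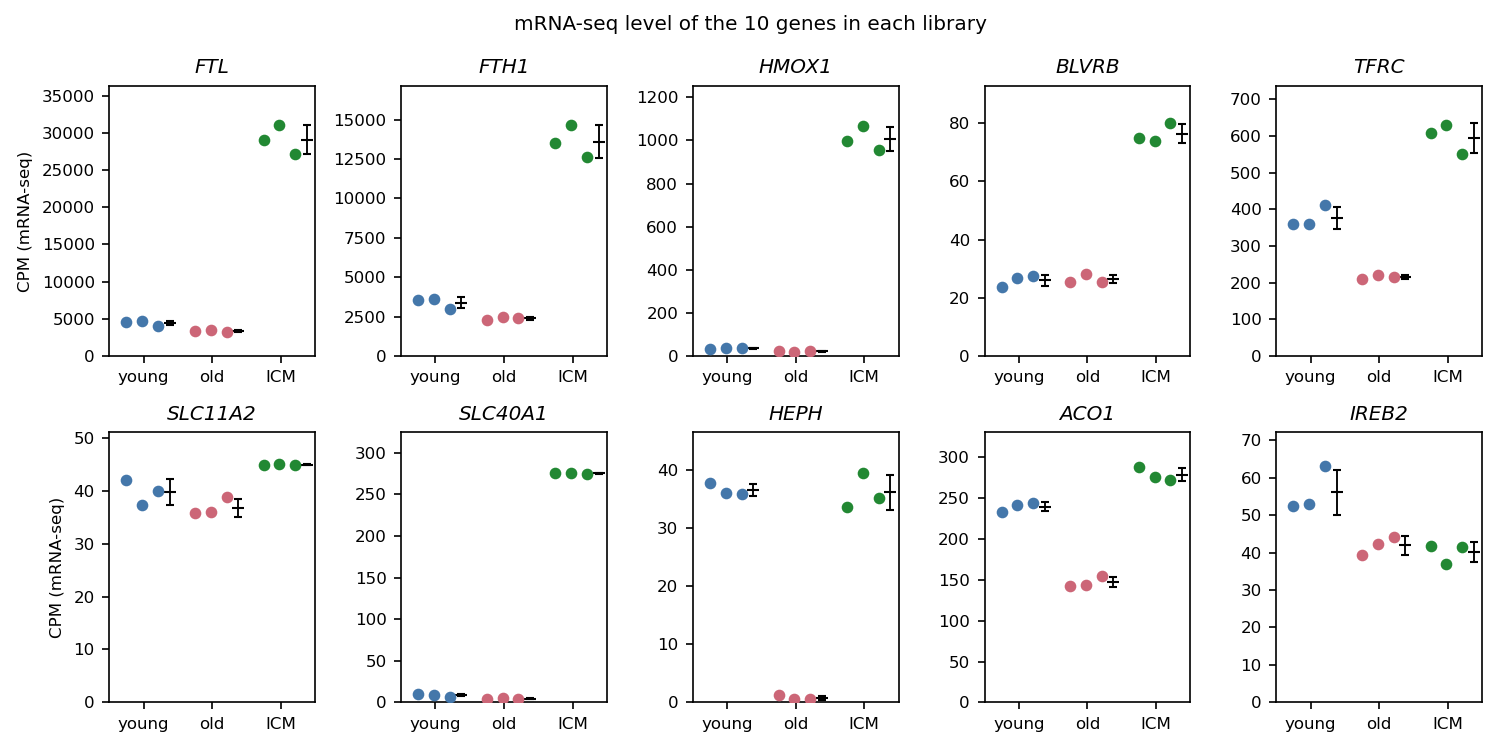
Each panel shows 1 gene, with the mRNA-seq level in CPM of each library as a dot and the group mean ± SD (n = 3) as a black mark, on linear axes that start at 0. FTL, FTH1, HMOX1, BLVRB and SLC40A1 were highest in the 3 ICM libraries, and HEPH lay at or below 1.22 CPM in the 3 old ones.

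The export genes held the widest mRNA changes among the members. SLC40A1 encodes ferroportin, the iron exporter, and stood at 9.62, 9.25 and 6.97 CPM in young, 4.26, 4.81 and 4.69 CPM in old, and 276, 276 and 275 CPM in ICM libraries. The ICM level was 31.5-fold that of young cells by the fit (log2 change 4.98 ± 0.0884, adjusted p = 9.43e-22, edgeR), and the old level was below the young one (-0.80 ± 0.141, adjusted p = 3.53e-05). HEPH encodes hephaestin, a membrane ferroxidase that works with ferroportin, and stood at 37.8, 36.1 and 35.9 CPM in young and 33.8, 39.6 and 35.3 CPM in ICM libraries. In the old libraries it was nearly absent, at 1.22, 0.636 and 0.531 CPM, or 12, 9 and 6 reads. HEPH fell by 5.46 ± 0.171 on the log2 scale in old against young cells (adjusted p = 3.95e-17, edgeR), whereas ICM and young cells overlapped (-0.04 ± 0.0874, 95% interval -0.21 to 0.13, adjusted p = 0.676). HMOX1 and SLC40A1 are strongly expressed in macrophages, and the leukocyte list of 6 markers summed to 57.0 to 68.0 CPM in ICM, 20.1 to 22.4 CPM in young and 31.5 to 34.3 CPM in old libraries. CD68, which fibroblasts also express, carried 60.5 CPM of it in ICM cells, and the T cell marker CD3E had no read in any condition; the part of this shift in the HMOX1 and SLC40A1 values was not tested.

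On the uptake side the changes were smaller. TFRC, the transferrin receptor, stood at 360, 359 and 410 CPM in young, 209, 222 and 215 CPM in old, and 607, 629 and 550 CPM in ICM libraries. The groups did not overlap and were ordered old, young, ICM. TFRC rose by 0.64 ± 0.0692 in ICM against young cells (adjusted p = 3.03e-08, edgeR) and fell by 0.71 ± 0.0704 in old against young cells (adjusted p = 9.09e-09), both on the log2 scale. SLC11A2, the divalent metal transporter that moves iron out of endosomes, lay between 35.7 and 45.0 CPM in all 9 libraries. It was not called in ICM against young (0.16 ± 0.0725, adjusted p = 0.0585, edgeR) or in old against young cells (-0.01 ± 0.0740, adjusted p = 0.899), and was just called in ICM against old (0.17 ± 0.0717, adjusted p = 0.0453); leaving out any of old 1, old 2, young 2 or the 3 ICM lysates ended that call, with adjusted p up to 0.118.

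The regulators had smaller mRNA changes, of at most 0.80 on the log2 scale in either direction. ACO1, the cytosolic aconitase that becomes iron regulatory protein 1 when it loses its iron-sulphur cluster, stood at 234 to 244 CPM in young, 143 to 154 CPM in old and 273 to 288 CPM in ICM libraries. These groups did not overlap, with a log2 change of 0.19 ± 0.0589 in ICM (adjusted p = 0.00601, edgeR) and -0.61 ± 0.0601 in old cells (adjusted p = 8.08e-09), each against young. IREB2, which encodes iron regulatory protein 2, stood at 52.3 to 63.0 CPM in young, 39.2 to 44.2 CPM in old and 37.1 to 41.8 CPM in ICM libraries, and so was lower in both old and ICM than in young cells. Its log2 change was -0.51 ± 0.0807 in ICM (adjusted p = 6.44e-06, edgeR) and -0.33 ± 0.0803 in old cells (adjusted p = 0.00105).

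Levels can be compared between genes only per length, here as RPKM, the CPM over the coding sequence divided by its length in kilobases. In mRNA-seq of young cells FTL led with 12982 ± 602 RPKM (SD, n = 3), followed by FTH1 with 6342 ± 919, TFRC with 131 ± 8.91, ACO1 with 114 ± 3.23, BLVRB with 48.4 ± 2.03 and HMOX1 with 39.4 ± 5.58. SLC11A2 (19.9 ± 1.38), IREB2 (18.5 ± 1.16), HEPH (13.3 ± 0.387) and SLC40A1 (5.09 ± 1.22) closed the order, and the neighbours SLC11A2 and IREB2 did not differ beyond their spread. In ICM cells HMOX1 (1178 ± 57.4 RPKM) took the third place and SLC40A1 (158 ± 1.37) the fifth, behind TFRC (221 ± 10.5). In footprints of young cells FTL stood at 685 ± 589, FTH1 at 401 ± 163 and TFRC at 289 ± 13.5 RPKM, and the ranges of FTL and FTH1 overlapped.

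Footprints over the coding sequence were called for fewer members. SLC40A1 and HEPH did not pass the count filter, which left 8 members in the Ribo-seq test over 4643 genes. Of these 8, 4 rose in ICM against young cells (26.6% of all genes were called), 3 were called in old against young cells, with 2 higher and 1 lower in old (36.3% of all genes), and 6 were higher in ICM than in old cells (13.4% of all genes). The median log2 change of the tested members was 1.18, 0.32 and 1.09, beside -0.00, 0.02 and -0.02 over all genes. A member that passes such a filter can do so through the condition in which it is high, so these counts do not describe all 10 genes. The medians carry the same limit, and the members were chosen with earlier results of these data known. Without young 1 and old 2 the counts were 5, 5 and 8. They include SLC40A1 and HEPH, which passed the filter there through the conditions in which they are high, and ACO1, newly called in old against young cells (-0.51, adjusted p = 0.0385, edgeR). SLC40A1 also passed the filter when ICM 1, ICM 2, ICM 3, old 2 or young 1 alone was left out. DESeq2 called 4, 1 and 4. Over the alternatives the calls among all genes ranged from 273 to 1758, from 159 to 3142 and from 187 to 924 in the 3 comparisons. The counts under other settings are therefore not read as results about the members. Among the 6 calls between ICM and old cells, that of FTH1 was lost without ICM 1 (0.73, adjusted p = 0.102, edgeR) and that of BLVRB without old 3 (1.21, adjusted p = 0.0572) or ICM 2 (0.84, adjusted p = 0.126).

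FTL footprints were higher in ICM and in old than in young cells, whereas its mRNA was lower in old cells. They stood at 717, 181 and 182 CPM in young (39, 124 and 313 reads), at 533, 1085 and 667 CPM in old (891, 59.3 and 389 reads) and at 1746, 1574 and 1817 CPM in ICM libraries (393, 124 and 84.0 reads). Young 1, a library with a low coding share, lay far above the other young libraries and inside the old range. The log2 change was 2.87 ± 0.285 in ICM against young (adjusted p = 9.67e-10, edgeR), 1.65 ± 0.279 in old against young (adjusted p = 1.73e-05) and 1.22 ± 0.256 in ICM against old cells (adjusted p = 0.000657). Without young 1 and old 2 the change in old against young cells was 1.87 (adjusted p = 1.38e-18). DESeq2, run as an alternative on all libraries, gave 1.21 and did not call it (adjusted p = 0.183). The call between ICM and old cells was lost with DESeq2 (1.11, adjusted p = 0.311) and without old 1 (0.98, adjusted p = 0.0503).

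FTH1 footprints stood at 315, 206 and 139 CPM in young, 262, 274 and 242 CPM in old and 798, 538 and 487 CPM in ICM libraries. The ICM libraries lay above all others, while young and old overlapped through young 1 with its 17.2 reads. The log2 change was 1.85 ± 0.242 in ICM against young cells (adjusted p = 3.26e-07, edgeR). In old against young cells it was 0.63 ± 0.229 (adjusted p = 0.0305), and this call was lost without young 2 (0.66, adjusted p = 0.168), young 3 (0.23, adjusted p = 0.657), old 1 (0.51, adjusted p = 0.256) or old 3 (0.58, adjusted p = 0.165). The gene shares reads with a near-identical copy, FTH1P3, which is listed as a pseudogene. The copy took fewer footprints than FTH1 in 8 libraries, from 9.50 beside 22.5 in ICM 3 and 205 beside 438 in old 1 to 235 beside 238 in young 3, and more in old 2, with 22.8 beside 15.0. Adding the copy's reads gave 0.68 (adjusted p = 0.0149) in old against young cells and 1.69 (adjusted p = 5.83e-07) in ICM against young cells.

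**Figure D2:**
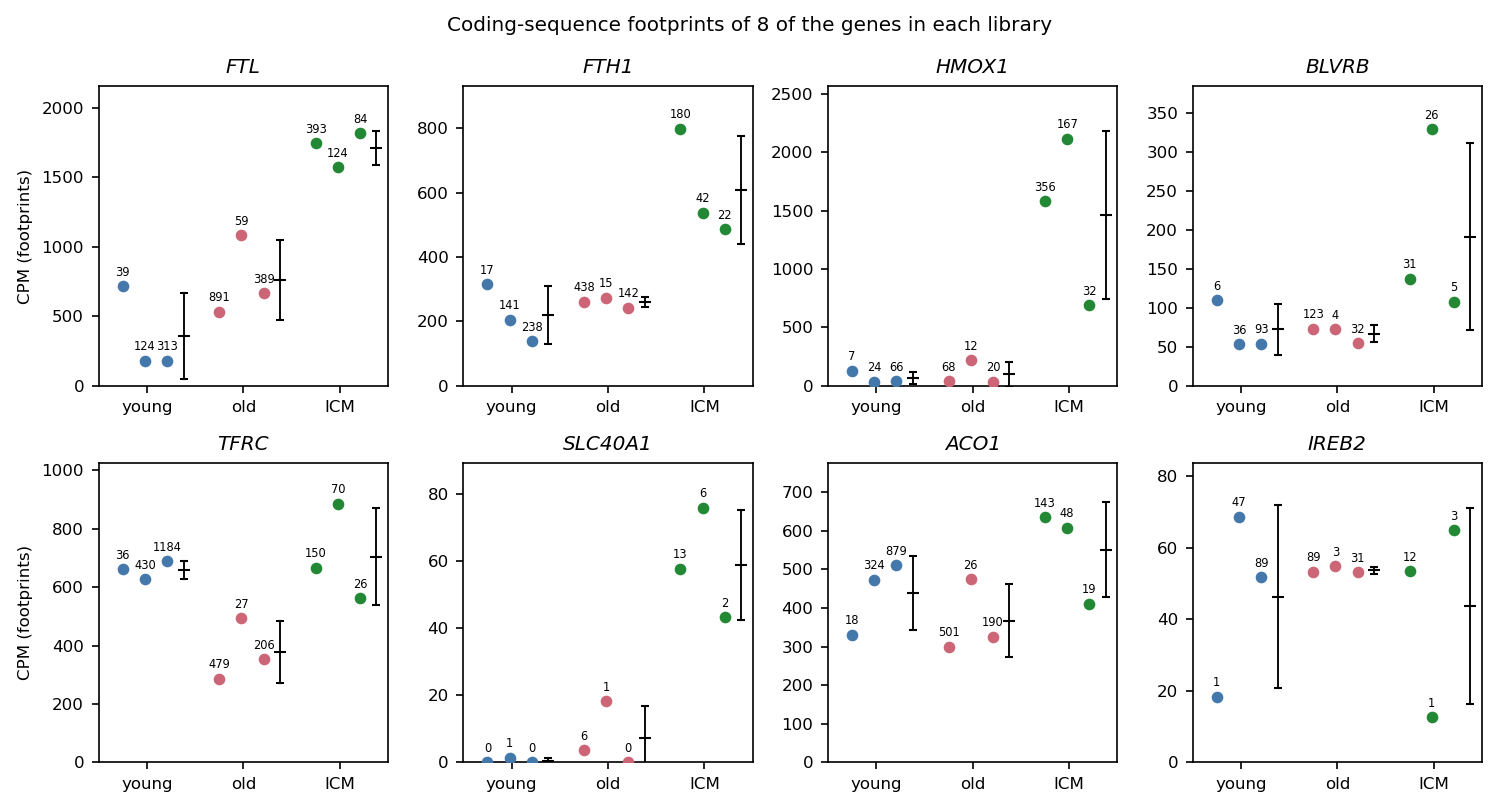
Each panel shows the coding-sequence footprints of 1 gene in CPM, with a dot for each Ribo-seq library, its read number above the dot and the group mean ± SD (n = 3) as a black mark. FTL footprints were lowest in young 2 and young 3 and highest in the 3 ICM libraries, and several values of BLVRB, SLC40A1 and IREB2 rest on fewer than 10 reads.

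HMOX1 footprints rose with its mRNA. They stood at 129, 35.0 and 38.4 CPM in young, 40.7, 219 and 34.3 CPM in old and 1582, 2114 and 692 CPM in ICM libraries. The ICM libraries were above all others, and the 2 high values among the rest were those of young 1 (7 reads) and old 2 (12 reads). The log2 change was 5.21 ± 0.345 in ICM against young cells (adjusted p = 1.1e-13, edgeR) and 0.30 ± 0.413 in old against young cells (95% interval -0.51 to 1.11, adjusted p = 0.596). BLVRB footprints, at 108 to 329 CPM in ICM and 53.3 to 110 CPM in young libraries, rose by 1.70 ± 0.346 on the log2 scale (adjusted p = 0.000283), although the groups overlapped through young 1.

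TFRC footprints stood at 662, 628 and 689 CPM in young, 286, 494 and 353 CPM in old and 667, 886 and 562 CPM in ICM libraries. Old cells lay below both other groups, and young and ICM cells overlapped. TFRC footprints fell by 0.85 ± 0.191 in old against young cells (adjusted p = 0.000655, edgeR), beside 0.71 for the mRNA, and differed by 0.10 ± 0.201 between ICM and young cells (95% interval -0.29 to 0.49, adjusted p = 0.743). They were 0.96 ± 0.211 higher in ICM than in old cells (adjusted p = 0.00122), a call lost without old 1 (0.75, adjusted p = 0.0688). ACO1 footprints were called only between ICM and old cells (0.70 ± 0.217, adjusted p = 0.0255), and leaving out any of young 2, young 3, the 3 old lysates, ICM 1 or ICM 2 ended the call, with adjusted p up to 0.395. IREB2 and SLC11A2 footprints were not called in any comparison and rested on 1 to 89 and 0 to 49 reads per library.

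For the 2 members below the filter, footprints are given as counts and CPM pooled over a condition, with exact 95% binomial intervals that cover counting error only. SLC40A1 had 21 of 350259 coding footprints in ICM cells, or 60.0 CPM (95% interval 37.1 to 91.6), 7 of 2311313 in old cells, or 3.03 CPM (1.22 to 6.24), and 1 of 2458002 in young cells, or 0.407 CPM (0.0103 to 2.27). Footprints of the exporter were thus most frequent in the condition with most of its mRNA. HEPH had 55 footprints in young cells, or 22.4 CPM (16.9 to 29.1), 3 in old cells, or 1.30 CPM (0.268 to 3.79), and 7 in ICM cells (8.04 to 41.2 CPM).

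Translational efficiency is the change of footprints relative to the change of mRNA in the same lysates, and among the members it was called for the ferritin chains. The test was the interaction between assay and condition, over 4618 genes, 8 of the members among them. Between old and young cells 2 of the 8 were called, FTL and FTH1, both higher in old, where 1.47% of all genes were called. The same 2 were called between ICM and old cells, both lower in ICM, where 0.282% of all genes, or 13, were called. Between ICM and young cells 0 of the 8 were called by edgeR, against 2.08% of all genes; 1 had an unadjusted p under 0.05, DESeq2 also called 0, and the fit without the lysate block called 1.

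By lysate this is shown as the footprints per mRNA read, the ratio of coding CPM in Ribo-seq to coding CPM in mRNA-seq. The test itself used the mRNA reads of the 3 coding-gene regions together, so its log2 changes are not those of this ratio. For FTL the ratio was 0.104, 0.0254 and 0.0281 in young, 0.1005, 0.193 and 0.130 in old and 0.0383, 0.0328 and 0.0417 in ICM lysates. Old 1 to 3 lay above all ICM lysates and above young 2 and 3, and young 1 overlapped them. The log2 change of FTL translational efficiency was 1.96 ± 0.274 in old against young cells (adjusted p = 6.7e-06, edgeR), a 3.90-fold difference, and -1.86 ± 0.262 in ICM against old cells (adjusted p = 7.46e-05). It was 2.16 (adjusted p = 1.53e-23) and -1.82 (adjusted p = 2.05e-19) without young 1 and old 2. Between ICM and young cells FTL differed by 0.11 ± 0.276 (95% interval -0.43 to 0.65, adjusted p = 0.903).

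For FTH1 the ratio was 0.0809, 0.0568 and 0.0475 in young, 0.108, 0.101 and 0.114 in old and 0.0568, 0.0390 and 0.0396 in ICM lysates. All old lysates lay above all others. The log2 change was 1.04 ± 0.223 in old against young cells (adjusted p = 0.0056, edgeR) and -1.30 ± 0.228 in ICM against old cells (adjusted p = 0.00158), and it was 1.14 and -1.40 without young 1 and old 2. The call in old cells was lost when young 2, young 3, old 1 or old 3 was left out (0.83 to 1.04, adjusted p up to 0.408), and that in ICM against old cells without old 1 (-1.22, adjusted p = 0.151).

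Both chains had few footprints for their mRNA in every condition. The median ratio over 4564 genes was 1.02 to 1.13 in the 9 lysates. Between 0 and 10.2% of these genes had a lower ratio than FTL, and between 0.0219% and 10.2% a lower one than FTH1, the higher shares coming from shallow libraries in which many genes had no footprint. Short coding sequences of 525 bases (FTL) and 549 bases (FTH1) and near-identical genomic copies can lower what short footprints count relative to longer mRNA reads, and their part in this level was not tested. SLC40A1, the other member with a 5′ hairpin match, had a ratio of 0.212, 0.279 and 0.161 in ICM 1 to 3, on 13, 6 and 2 footprints, and 3.26% to 12.7% of the genes lay lower. TFRC, with its hairpins in the 3′ UTR, stood at 2.15 to 2.27 in young, 1.57 to 2.68 in old and 1.17 to 1.68 in ICM lysates.

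**Figure D3:**
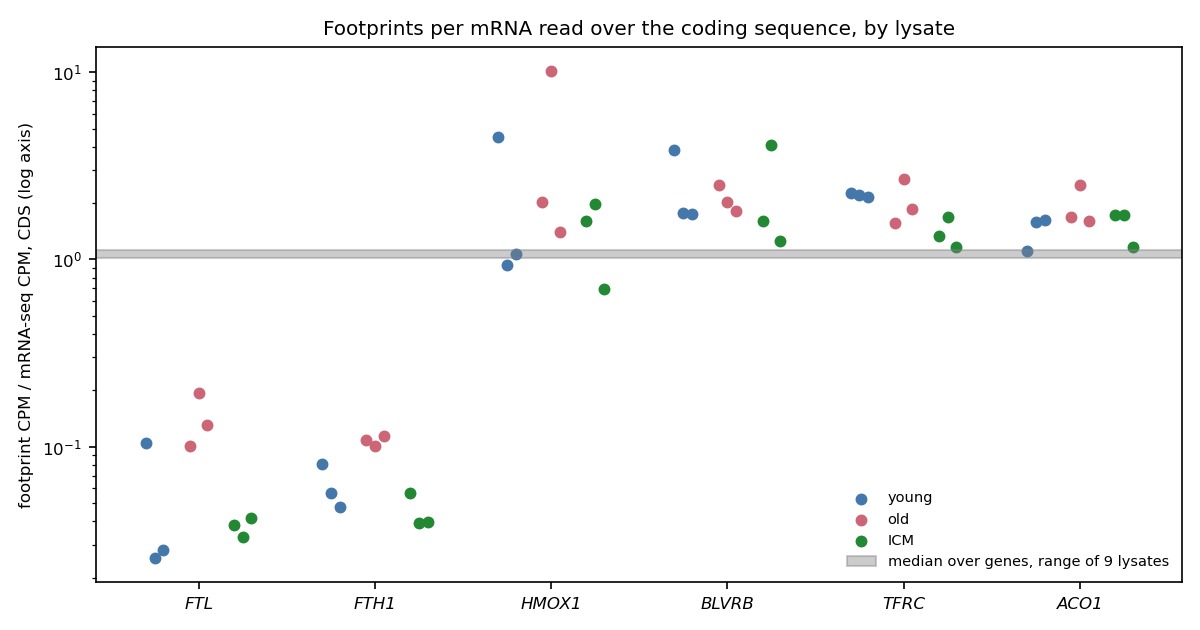
The footprint CPM divided by the mRNA-seq CPM over the coding sequence is plotted on a log axis for 6 genes, with a dot for each lysate (3 per condition) and a grey band for the range, over 9 lysates, of the median across 4564 genes. FTL and FTH1 lay far below the band in all lysates, highest in old cells, and the other 4 genes lay mostly above it, with HMOX1 below it in young 2 and ICM 3.

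Of the remaining members, TFRC came closest to a call. Its translational efficiency differed by -0.58 ± 0.197 between ICM and young cells (adjusted p = 0.119, edgeR), with ICM lysates at 1.17 to 1.68 all below young ones at 2.15 to 2.27 footprints per mRNA read. HMOX1 differed by 1.01 ± 0.428 between old and young cells (95% interval 0.17 to 1.85, adjusted p = 0.303), an estimate close to that of FTH1 with a wider error, its 2 highest ratios being those of old 2 (10.1) and young 1 (4.51). BLVRB, ACO1, IREB2 and SLC11A2 had adjusted p of 0.53 or more in all 3 comparisons.

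**Figure D4:**
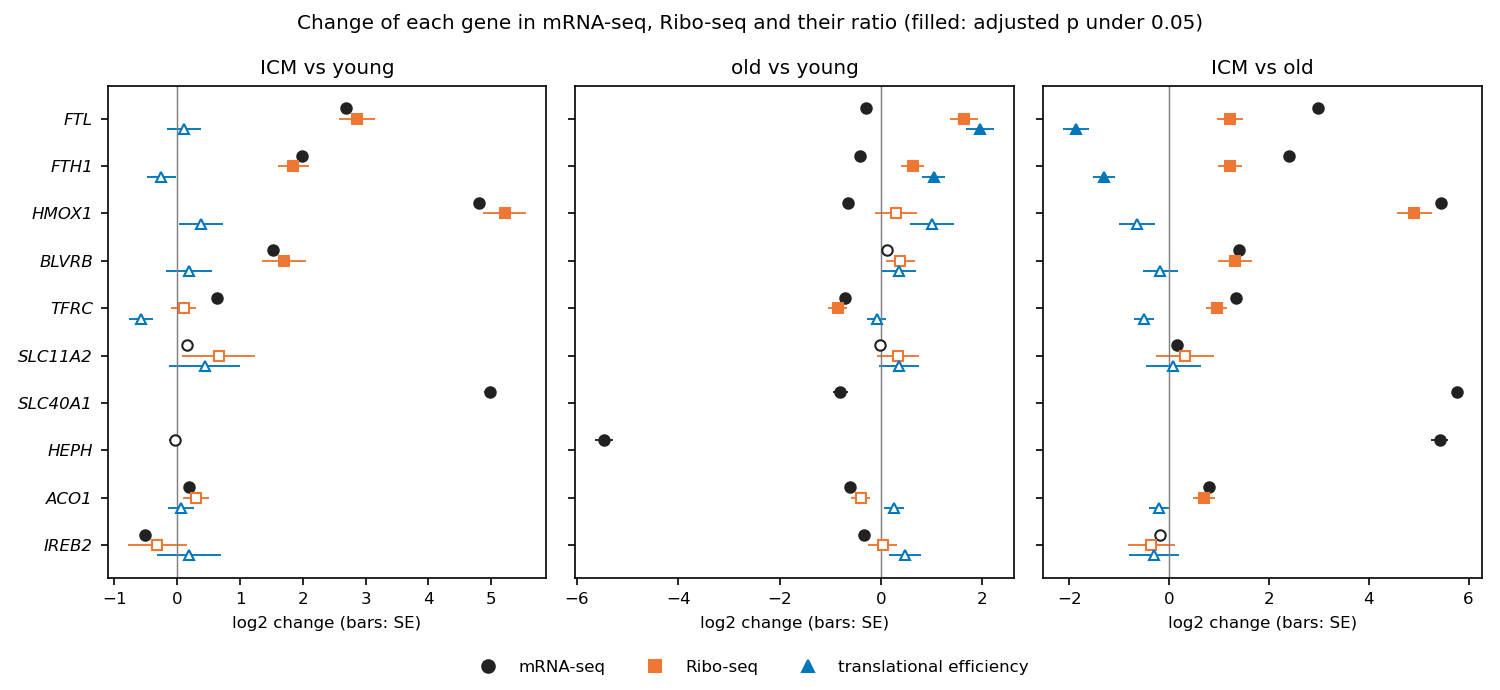
The log2 change of each gene is plotted for mRNA-seq (circles), Ribo-seq (squares) and translational efficiency (triangles) in the 3 comparisons, with bars for the SE and filled symbols for an adjusted p under 0.05. For FTL and FTH1 in old against young cells, the mRNA symbol lies left of 0 and the footprint symbol right of it; the axes differ between panels, and SLC40A1 and HEPH have mRNA symbols only.

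The regions of each mRNA were examined because the hairpins sit in the UTRs. The ratio of 3′ UTR to CDS reads in mRNA-seq could be tested for 9 members, BLVRB having 1 read in its 3′ UTR in all libraries together. None was called by edgeR in any comparison: 0 of 9 in ICM against young cells, where 5.05% of 9729 genes were called, 0 of 9 in old against young cells (1.84%) and 0 of 9 in ICM against old cells (2.16%). At an unadjusted p under 0.05 the members numbered 1, 2 and 0, and DESeq2 called 0 in each. For TFRC the 3′ UTR held 43.7% to 47.3% of the mRNA reads in young, 41.1% to 45.4% in old and 40.9% to 44.3% in ICM libraries, and the ratio differed by -0.21 ± 0.0910 in old against young cells (adjusted p = 0.404) and by -0.16 ± 0.0884 in ICM against young cells (adjusted p = 0.417).

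Ferritin reads fell very unequally over the annotated regions. FTL had no read in the 5′ UTR column in any of the 18 libraries, although the annotation gives it a 5′ UTR of 199 bases, and 0.48% to 0.98% of its mRNA reads in the 3′ UTR. FTH1 had 27.1% to 43.4% of its mRNA reads in the 5′ UTR. How the tables split overlapping transcripts over regions was not given in the sources used here, and FTH1 exons overlap those of BEST1 on the other strand, so region shares are uncertain for both. FTH1 footprints in the 5′ UTR numbered 3.00, 19.7 and 114 in young, 50.5, 15.8 and 90.3 in old and 39.0, 10.8 and 6.00 in ICM libraries, or 10.3% to 49.7% of its footprints. The share did not separate the conditions, and it was highest in old 2, a library in which 44.7% of the footprints of all genes lay in 5′ UTRs.

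TFRC footprints in the 3′ UTR had their lowest shares in the ICM libraries, with intervals that overlapped that of young 3. They made up 22 of 58 footprints in young 1, 40 of 472 in young 2 and 44 of 1236 in young 3, or 37.9% (exact 95% interval 25.5 to 51.6), 8.47% (6.12 to 11.4) and 3.56% (2.60 to 4.75). In old cells they were 57 of 536, 8 of 35 and 17 of 223, or 10.6%, 22.9% and 7.62%. In ICM cells they were 2 of 152, 2 of 72 and 0 of 26, with exact 95% intervals that reach to 4.67%, 9.68% and 13.2%. The share of all footprints that lay in 3′ UTRs was 12.4%, 1.94% and 1.40% in young, 3.51%, 14.8% and 4.90% in old and 1.77%, 2.29% and 3.10% in ICM libraries, so it was highest in the same libraries, young 1 and old 2, in which the TFRC share was. TFRC exons overlap an unnamed gene on the other strand.

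A list of 55 other genes of iron and heme handling gives the setting of these changes, and 50 of them could be tested in mRNA-seq. In ICM against young cells 22 rose, 17 fell and 11 were not called, in old against young cells 20 rose, 15 fell and 15 were not called, and in ICM against old cells 22 rose, 11 fell and 17 were not called. The called shares of 78.0%, 70.0% and 66.0% lay near the 71%, 66.1% and 63.3% over all genes. The list's median log2 change was 0.16, 0.05 and 0.09, beside -0.01 over all genes in each, so it moved in both directions. TFR2, STEAP4, HAMP, HJV and ALAS2 did not pass the filter.

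Heme handling held the 3 largest rises of the list in ICM cells. Of 7 genes of heme breakdown and transport, 4 rose and 2 fell in ICM against young cells (median 0.86), and of 8 genes of heme synthesis 5 rose and 1 fell (median 0.53). ABCG2, an exporter of heme and drugs, rose by 2.69 ± 0.151 on the log2 scale in ICM against young cells (adjusted p = 3.31e-13, edgeR), from 3.07 ± 0.333 to 20.6 ± 2.38 CPM (SD, n = 3). SLC48A1, which moves heme out of lysosomes, rose by 2.15 ± 0.0942 and PGRMC1, a heme-binding membrane protein, by 2.00 ± 0.0650. PGRMC1 also rose in old against young cells, by 0.83 ± 0.0650. ALAS1, the first enzyme of heme synthesis, rose by 1.79 ± 0.0651 in ICM against old cells, from 38.3 ± 1.10 to 144 ± 6.55 CPM, and HMOX2, the constitutive heme oxygenase, fell by 0.53 ± 0.0659.

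Uptake and mitochondrial genes moved both ways. STEAP3, the endosomal ferrireductase that works with the transferrin receptor, fell by 1.07 ± 0.0734 in ICM against young cells (adjusted p = 1.18e-11, edgeR) and by 1.25 ± 0.0724 in ICM against old cells. In old against young cells all 8 tested genes of uptake and reduction were called, 5 higher and 3 lower, where 66.1% of all genes were called. MCOLN1, the lysosomal cation channel, rose by 1.25 ± 0.0895 there and CYBRD1, a ferrireductase, by 1.04 ± 0.0627. Neither higher level was confined to old cells. In young, old and ICM cells MCOLN1 had means of 15.8, 35.2 and 57.8 CPM, and CYBRD1 of 187, 360 and 387 CPM. SLC25A37, the mitochondrial iron importer, was lower in both ICM (-0.76 ± 0.0871) and old (-0.70 ± 0.0876) than in young cells. PCBP2, an iron chaperone, fell by 0.75 ± 0.0656 in old against young cells. Its mean was 503 CPM in young, 281 CPM in old and 303 CPM in ICM cells, so the lower level was not confined to old cells.

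**Figure D5:**
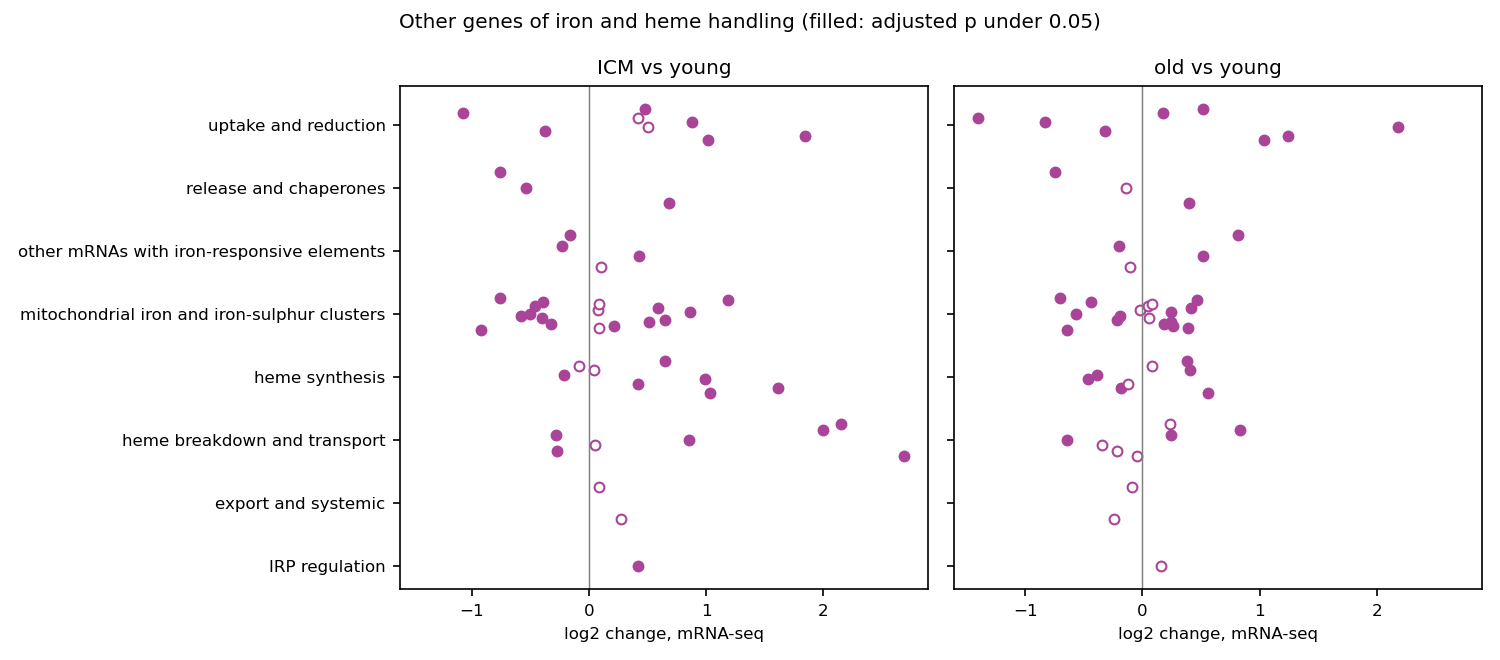
Each dot is 1 of the 50 tested genes of iron and heme handling other than the 10 members, placed by its log2 change in mRNA-seq in ICM (left) or old (right) against young cells and grouped by role, with filled dots for an adjusted p under 0.05. The largest rises in ICM cells were in heme breakdown and transport, and the dots lie on both sides of 0 in most roles.

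At the level of footprints 21 of the 55 could be tested, with 4 rising and 1 falling in ICM against young, 8 rising and 1 falling in old against young, and 2 rising and 1 falling in ICM against old cells. These shares of 23.8%, 42.9% and 14.3% lay near the 26.6%, 36.3% and 13.4% over all genes. In translational efficiency 1 of the 21 was called in old against young cells and 0 in the other comparisons. That gene was EPAS1, which encodes the hypoxia factor HIF2A and whose 5′ UTR carries a known iron-responsive element, although it held no match to the letters searched here. EPAS1 footprints per mRNA read were 0.172, 0.145 and 0.134 in young, 0.258, 0.376 and 0.343 in old and 0.285, 0.256 and 0.0839 in ICM lysates, the last from 3 footprints. All old lysates lay above all young ones, and the ICM lysates spanned from below the young to the old values. The log2 change of EPAS1 translational efficiency in old against young cells was 1.22 ± 0.219 (adjusted p = 0.000484, edgeR), and it was called in 17 of 20 alternatives.

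For 4 members the genes with the most similar mRNA profile were sought among 10813 others with a mean of at least 5 CPM, by the Euclidean distance of centred log2(CPM + 1) over the 9 mRNA-seq libraries. FADS1 (distance 0.417) and MRNIP (0.512) were among the nearest to FTL, where the median distance was 4.12. TRIM16L (0.336), GSR (0.361) and TXN (0.390) were nearest to FTH1, where the median was 3.25. SLC40A1 (0.464), itself a member, AKR1B10 (1.04) and AKR1B15 (1.16) were nearest to HMOX1, where the median was 7.28, and the last pair are near-identical copies that may share reads. GAB1 (0.267), TGFBR1 (0.276) and MCC (0.296) were nearest to TFRC, where the median was 1.85.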

How the data were processed

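The authors deposited, for each of the 18 libraries, estimated counts per gene symbol in 5′ UTR, CDS, 3′ UTR and noncoding classes, many not whole; per the labels, the submitters' processing notes name STAR 2.6.0c, featureCounts and GRCh37. How reads with several hits were shared out and whether strand was used was not given in the sources used here. For mRNA-seq the 3 coding-gene regions were summed; footprints were taken from the CDS. Counts were rounded and tested with edgeR 4.0.16 (quasi-likelihood, TMM scaling, filterByExpr, Benjamini-Hochberg adjustment over all genes). Translational efficiency was the assay by condition interaction with the lysate as a block, which rests on the study's methods, TMM being set within each assay; the 3′ UTR ratio was tested likewise with the library as a block. CPM are reads per summed coding-gene reads (mRNA-seq) or CDS reads (Ribo-seq) of the library, without TMM. Intervals are 1.96 SE. Positions, coding lengths and hairpin searches used GENCODE v44lift37 on GRCh37. On simulated counts with 2-fold changes between ICM and young cells, 93.0% (mRNA-seq, 13004 genes), 63.2% (Ribo-seq, 4237 genes), 47.1% (translational efficiency, 4202 genes) and 74.4% (3′ UTR ratio, 9523 genes) of about 200 changed genes were recovered. In the same order 7, 3, 4 and 9 unchanged genes were called. All other genes were simulated without a change between conditions and without a lysate effect, so recovery in the data themselves was not measured. Replicate numbers showed no pairing of the conditions (correlations of deviations -0.0555 to 0.103). The same check between the mRNA-seq and Ribo-seq libraries of a lysate gave -0.0793 to 0.136. It thus did not show the lysate pairing either, and the lysate block rests on the study's methods alone. Members and lists were chosen with earlier results of these data known; pathway genes named are the 3 largest called rises and falls per mRNA-seq comparison with a mean of at least 5 CPM, plus those called in translational efficiency; a few genes that these rules name are not reported here. Alternatives were other scaling, filters, thresholds, DESeq2 1.42.0, other sample sets, blocks, thinning and added copies.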

Additional observations from a re-analysis of the deposited data

Results flagged for a closer look

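For 6 members the mRNA-seq changes against young cells were called in both ICM and old cells with opposite signs, and the difference between these effects, which is the direct comparison of ICM with old cells, was itself called by edgeR. The log2 change of ICM minus old was 2.99 for FTL, 2.40 for FTH1, 5.45 for HMOX1, 1.35 for TFRC, 5.78 for SLC40A1 and 0.80 for ACO1, with adjusted p between 7.91e-23 and 7.05e-11. Over all genes 71% (ICM) and 66.1% (old) were called against young cells. The share of all genes called in both with opposite signs was not determined, so the count of 6 is not a result particular to the members.

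In translational efficiency the effects of the 2 conditions on ferritin also differed, with ICM minus old at -1.86 for FTL (adjusted p = 7.46e-05, edgeR) and -1.30 for FTH1 (adjusted p = 0.00158).

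FTH1P3, a copy of FTH1 that is listed as a pseudogene and whose own level is compared nowhere above, had 4578 ± 254 CPM (SD, n = 3) of mRNA-seq reads in ICM cells, beside 1148 ± 87.7 CPM in young and 779 ± 49.9 CPM in old cells. The order is that of FTH1 itself, and reads of the copy and of FTH1 cannot be told apart with certainty. No group had the 4 samples that a test for a single outlying sample needs.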

How the results depend on the processing

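No member change reversed its direction in any called result. All 20 alternatives called FTL translational efficiency in old against young (1.58 to 2.23) and in ICM against old cells (-2.08 to -1.65), and all 17 called HMOX1 footprints in ICM against young cells (4.27 to 5.38).

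The number of members called changed as follows, and these counts are not read as results about the members. Over the refits the mRNA-seq calls among all genes ranged from 8139 to 9768 in ICM against young cells. They ranged from 7539 to 9097 in old against young and from 7153 to 8775 in ICM against old cells. The share of all genes called with an absolute log2 change over 0.6 is not given here. In mRNA-seq of old against young cells it was 5 with an absolute log2 change over 0.6. In Ribo-seq of old against young cells it was 1 with DESeq2, 5 with only the compared groups in the fit, 1 with libraries thinned to the shallowest and 5 without young 1 and old 2; in ICM against old cells it was 3 when thinned. In translational efficiency of ICM against young cells it was 1 without the replicate block and 1 at an adjusted p under 0.15 (TFRC); in old against young cells it was 1 with DESeq2 and 1 when thinned, and in ICM against old cells 1 when thinned. The cause was not tested, beyond thinning leaving fewer reads.

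Leaving out each lysate in turn gave 8 to 9, 8 and 8 to 10 members in mRNA-seq of ICM against young, old against young and ICM against old cells. In the same order it gave 4 to 5, 2 to 4 and 3 to 7 in Ribo-seq, and 0, 1 to 2 and 1 to 2 in translational efficiency. The 3 in Ribo-seq came without old 1. Most genes were called in mRNA-seq, and the share of all genes is not given for each of these fits, so the counts are not read as results about the members.

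With the replicate number as a block, FTH1 footprints in old against young cells (0.48, adjusted p = 0.221, edgeR), BLVRB (1.26, adjusted p = 0.0543) and ACO1 (0.64, adjusted p = 0.0954) footprints in ICM against old cells, and SLC11A2 mRNA in ICM against old cells (0.17, adjusted p = 0.0537), were no longer called, and IREB2 mRNA in ICM against old cells was (-0.18, adjusted p = 0.0399); no other call changed among the members. The calls over all genes in ICM against young, old against young and ICM against old cells numbered 1236, 1685 and 623 in Ribo-seq, and 273, 159 and 187 when thinned; with only the compared groups 3142 were called in old against young cells. In translational efficiency they numbered 96, 68 and 13, and 280, 437 and 63 without the replicate block, here the lysate; the lowest were 30 and 9 (thinned) and 3 (without old 1). For the 3′ UTR ratio 179 fell to 107 without young 2 and 210 to 130 without old 2. Footprint depth limits IREB2 and SLC11A2, for which a difference was not detectable at these counts.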
